A study of Mus musculus with 15 samples.

Results

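The genes described here are 10 genes of mouse neutrophils, the white blood cells that carry antimicrobial proteins in granules. They are S100a8 and S100a9, which encode the 2 subunits of calprotectin, the granule protein genes Ltf, Ngp, Camp, Mpo and Elane, the regulator gene Cebpe, and the receptor genes Cd177 and Csf3r. They were taken as the non-control probes whose RefSeq accession maps to one of these genes, which gave 11 probes, 2 of them for Camp. Of the 10 genes 9 passed the filter on dim probes and were tested, among 25247 genes and transcripts tested in all. The gene left out of the tests is Ngp.

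The lungs came from female C57BL/6 mice of 7 to 8 weeks in a study of rod-like carbon nanotubes (rCNT), stiff particles in the shape of fibres. In the first group (4 samples) mice aspirated 10 µg of rCNT, suspended in 50 µl of phosphate-buffered saline (PBS) and placed at the back of the throat, each day for 4 days, and its control group (4 samples) aspirated 50 µl of PBS alone. In the other exposed group (3 samples) mice breathed an rCNT aerosol of 6.2 to 8.2 mg per cubic metre for 4 h per day on 4 days, and its control group (4 samples) was untreated. RNA of whole lung, collected 24 h after exposure ended, was measured on 2-colour Agilent arrays, each sample in 1 channel. Whether each sample stands for 1 mouse or for pooled mice is not given in the labels, so p-values cover only the spread among these samples, and that spread may be technical.

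Neutrophils make their granule proteins one set after another while they mature in the bone marrow. Azurophil granules with myeloperoxidase and elastase come first, specific granules with lactoferrin, cathelicidin and neutrophilic granule protein follow, and the calprotectin subunits accumulate in the cytosol. The transcription factor C/EBP-epsilon switches on the specific granule genes, and the receptor for granulocyte colony-stimulating factor, the product of Csf3r, drives production and survival of the cells. In the lung, neutrophils enter from the blood and from the vessel walls, and lactoferrin is also secreted by airway glands and airway epithelium. In whole lung, fewer cells of a type and less RNA per cell cannot be told apart.

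Levels are log2 intensities after background correction and quantile normalisation, and a difference of 1 is a factor of 2 on the intensity scale. Within groups, replicates had correlations of 0.9939 to 0.998 over the tested genes, and 54.6% to 64.7% of spots per sample were well above background. No spot was saturated. Slide 1 held the 8 aspiration samples, and slides 2 and 3 held the 7 inhalation samples, so route, slide and kind of control cannot be told apart wherever aspiration samples are set against inhalation samples. Adjusted p-values are limma values with Benjamini-Hochberg adjustment over all genes tested, and the threshold is 0.05.

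S100a8 and S100a9 lie next to each other on chromosome 3 with 0 protein-coding genes between them, and they are transcribed from opposite strands. RefSeq promoters (GRCm38.p6, 250 bases before to 50 after the annotated start, 300 in all) were found for 9 of the 10 genes, and Cebpe is the other one. Those of the calprotectin pair are shown because the 2 genes moved together, and those of Ltf and Cd177 because both genes were higher after rCNT by either route. Capitals mark matches on either strand to a C/EBP-type motif (TTNNGCAA), a PU.1-type motif (GAGGAA) or a TATA motif (TATAAA), written 5′ to 3′ along the gene's strand.
S100a8 (chr3:90668821-90669120, plus strand): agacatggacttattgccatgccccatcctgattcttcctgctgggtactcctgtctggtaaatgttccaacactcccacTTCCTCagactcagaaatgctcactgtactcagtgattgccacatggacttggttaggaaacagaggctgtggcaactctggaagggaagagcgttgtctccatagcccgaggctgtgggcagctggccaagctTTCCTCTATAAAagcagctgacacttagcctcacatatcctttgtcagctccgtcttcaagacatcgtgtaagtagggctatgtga
S100a9 (chr3:90695672-90695971, minus strand): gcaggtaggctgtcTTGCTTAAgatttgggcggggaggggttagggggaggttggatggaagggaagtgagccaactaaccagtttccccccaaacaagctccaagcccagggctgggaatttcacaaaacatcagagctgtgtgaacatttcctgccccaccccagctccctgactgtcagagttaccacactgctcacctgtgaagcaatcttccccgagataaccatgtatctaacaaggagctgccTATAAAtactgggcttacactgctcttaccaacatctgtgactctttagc
Ltf (chr9:111019042-111019341, plus strand): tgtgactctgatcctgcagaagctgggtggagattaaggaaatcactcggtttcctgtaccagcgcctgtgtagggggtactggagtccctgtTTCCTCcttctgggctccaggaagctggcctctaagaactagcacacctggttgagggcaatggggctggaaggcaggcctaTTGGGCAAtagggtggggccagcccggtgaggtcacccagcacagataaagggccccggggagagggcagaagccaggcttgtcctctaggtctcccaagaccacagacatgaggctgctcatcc
Cd177 (chr7:24760262-24760561, minus strand): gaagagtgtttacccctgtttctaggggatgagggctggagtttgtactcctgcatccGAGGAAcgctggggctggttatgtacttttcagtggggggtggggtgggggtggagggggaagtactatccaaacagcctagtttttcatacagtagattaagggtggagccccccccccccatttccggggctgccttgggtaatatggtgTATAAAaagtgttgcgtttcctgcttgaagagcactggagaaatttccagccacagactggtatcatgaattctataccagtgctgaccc
The C/EBP-type motif was present in 3 of the 9 promoters (S100a9, Ltf and Ngp) and in 10.8% of 32851 promoters in the table. The PU.1-type motif was present in 6 of the 9 (S100a8, Ltf, Mpo, Elane, Cd177 and Csf3r) and in 28.3% of all promoters. The TATA motif was present in 3 of the 9 (S100a8, S100a9 and Cd177) and in 13.6% of all promoters. No match of one motif overlapped a match of another in these 9 promoters, though a PU.1-type match in S100a8 ends where its TATA match begins. In S100a8 the TATA match began at position -30 from the annotated start, and in S100a9 at position 1. These matches describe the letters in the window only.

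**Figure D1:**
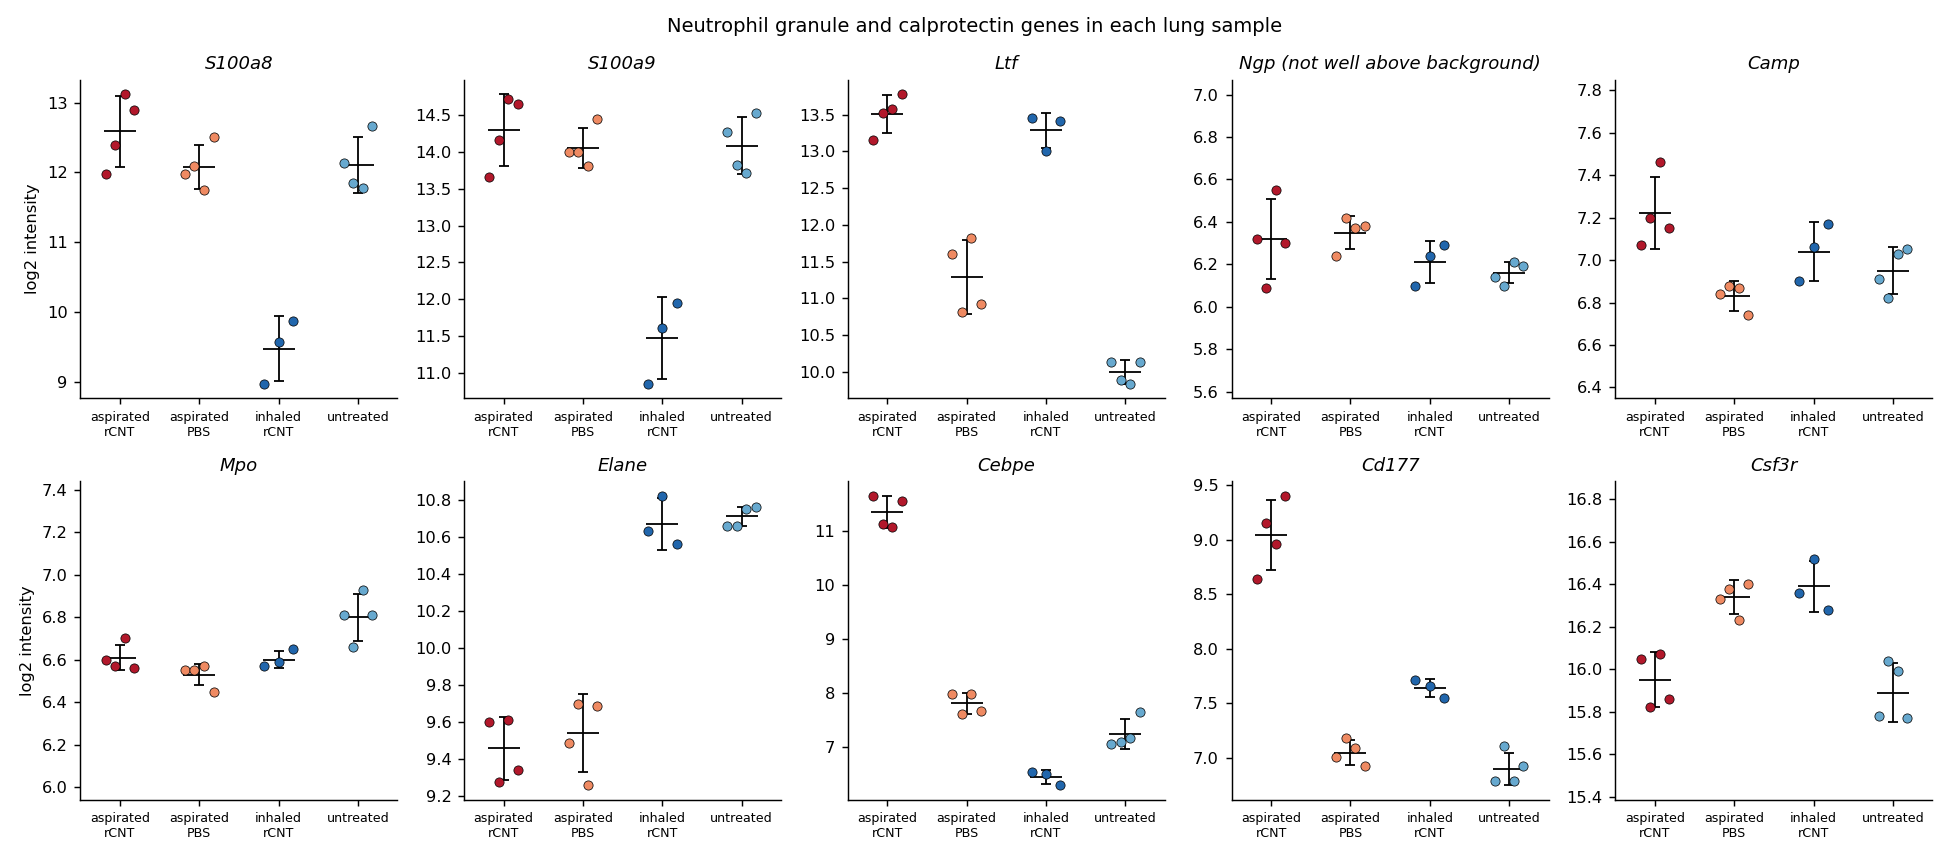
Log2 intensity (y axis, a separate range for each gene) of the brightest probe of each of the 10 genes in the 15 lung samples, by group on the x axis. Points are samples and bars are the mean and SD. S100a8 and S100a9 are low in the inhaled rCNT samples, Ltf is high in both rCNT groups, Cebpe is high in the aspirated rCNT samples, and Elane separates the aspiration samples from the inhalation samples.

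Aspirated rCNT was set against aspirated PBS to ask how these genes respond when the particles are delivered as a liquid. The genes of the regulator Cebpe, the granule proteins Ltf and Camp and the surface protein Cd177 rose, Csf3r fell, and S100a8, S100a9, Mpo and Elane did not pass the test. Thus 4 of 9 genes were higher and 1 was lower, against 20.6% of all genes higher and 26.5% lower, 47.2% in all. The median log2 fold change was 0.39 over the 9 genes and -0.04 over all genes. In 5 of the 9 the exposed and control samples did not overlap, against 42.5% of all genes.

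Inhaled rCNT was set against untreated lungs to ask the same of the aerosol. Ltf, Cd177 and Csf3r rose, S100a8, S100a9, Cebpe and Mpo fell, and Camp and Elane did not pass the test. Thus 3 of 9 genes were higher and 4 were lower, against 28.4% of all genes higher and 32.5% lower, 60.8% in all. The median log2 fold change was close to 0 over the 9 genes, and -0.02 over all genes. In 7 of the 9 the groups did not overlap, against 54.8% of all genes. The share of the 9 genes that was called is thus near that of all genes for either route, and what follows is about the size and direction of the single genes. Counts over gene lists below are to be read beside the same shares of all genes for the same route.

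**Figure D2:**
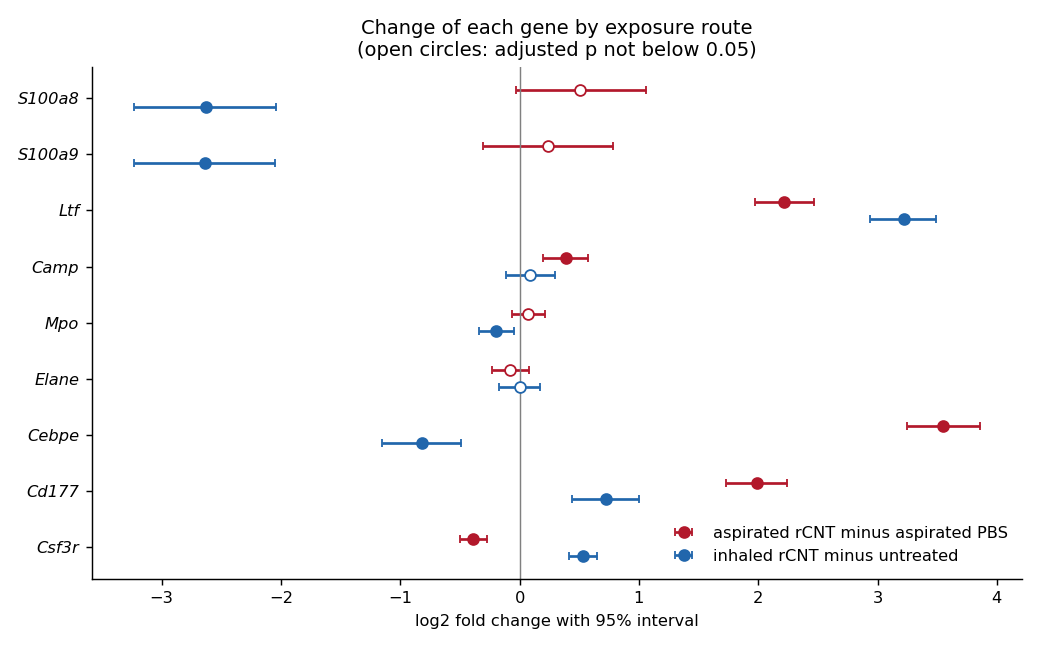
Log2 fold change (x axis) of the 9 tested genes after aspirated rCNT against aspirated PBS (red) and after inhaled rCNT against untreated (blue), with 95% confidence intervals. Filled circles passed the adjusted p threshold of 0.05. S100a8, S100a9 and Cebpe lie to the left after inhalation, Ltf and Cd177 lie to the right for both routes, and Csf3r lies on opposite sides.

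The calprotectin genes showed the largest falls of the 9 after inhalation. S100a8 had log2 intensities of 11.98, 12.39, 13.12 and 12.89 in the aspirated rCNT samples, against 11.98, 12.09, 11.75 and 12.51 in the aspirated PBS samples. It had 8.98, 9.57 and 9.88 in the inhaled rCNT samples, against 12.13, 11.85, 11.78 and 12.67 in the untreated samples. The 3 inhaled rCNT samples lay below all other 12, and the other 3 groups overlapped one another. S100a8 fell by 2.63 ± 0.28 after inhalation (log2 fold change ± SE, adjusted p = 8.38e-07), to 0.161 of the untreated level. After aspiration the log2 fold change was 0.51 ± 0.26 (adjusted p = 0.115, 95% interval -0.03 to 1.06). It passed with 0.73 (adjusted p = 0.0272) without aspirated rCNT replicate 1, the lowest sample of its group.

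S100a9, the partner of S100a8 in calprotectin, had log2 intensities of 13.66, 14.17, 14.72 and 14.65 in the aspirated rCNT samples, against 14.00, 14.00, 13.81 and 14.45 in the aspirated PBS samples. It had 10.85, 11.60 and 11.95 in the inhaled rCNT samples, against 14.27, 13.82, 13.72 and 14.54 in the untreated samples. As for S100a8, the inhaled rCNT samples lay below all others. S100a9 fell by 2.64 ± 0.28 after inhalation (adjusted p = 8.01e-07), and after aspiration the log2 fold change was 0.24 ± 0.26 (adjusted p = 0.481, 95% interval -0.31 to 0.78). The inhalation samples can also be compared within a slide, with 1 inhaled rCNT sample against 3 untreated samples on slide 2 and 2 inhaled rCNT samples against 1 untreated sample on slide 3. Each within-slide value here and below thus has an arm of 1 sample, which the fit assumes to vary like the other groups. Within slide 2 the change was -2.95 for S100a8 and -3.17 for S100a9, and within slide 3 it was -2.94 for S100a8 and -2.70 for S100a9.

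The effect of rCNT on both genes differed between the routes. The difference of the effects, inhaled minus aspirated, was -3.15 ± 0.38 for S100a8 (adjusted p = 4.13e-06) and -2.87 ± 0.38 for S100a9 (adjusted p = 9.95e-06). The 2 control groups were close for these genes: aspirated PBS minus untreated was -0.03 (95% interval -0.57 to 0.52) for S100a8 and -0.02 (95% interval -0.57 to 0.52) for S100a9. Against aspirated PBS in place of untreated lungs, inhaled rCNT was lower by a similar amount, with -2.61 ± 0.28 for S100a8 (adjusted p = 1.74e-06) and -2.62 ± 0.28 for S100a9 (adjusted p = 1.66e-06), across different slides.

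Over the 15 samples the 2 calprotectin genes had a Pearson r of 0.993, and S100a9 was the most alike of 15842 named genes to S100a8 in pattern. The log2 intensity of S100a8 minus that of S100a9, which is read only as a change between samples since the 2 probes differ, was -1.78 to -1.61 in the aspirated rCNT samples and -2.06 to -1.92 in the aspirated PBS samples. It was -2.07 to -1.88 in the inhaled rCNT samples and -2.15 to -1.87 in the untreated samples. The aspirated rCNT samples thus lay above the other 3 groups in this difference. After S100a9 the genes most alike to S100a8 were Mmp9 (r = 0.979), which encodes the gelatinase of neutrophil granules, Asl (0.973), Gimap9 (0.968) and Adsl (0.964). For S100a9 they were Asl (0.978), Mmp9 (0.970), Gimap9 (0.969) and Lrch4 (0.963). These correlations describe samples that share 4 groups and 3 slides, and Mmp9 was not well above background in any inhaled rCNT sample.

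A wider list holds calprotectin with its receptors and relatives. Of 7 genes for calprotectin, related S100 proteins and receptors, 3 were higher and 2 lower after aspiration, against 20.6% and 26.5% of all genes. After inhalation 0 were higher and 5 lower, against 28.4% and 32.5% of all genes. The median log2 fold change was 0.28 after aspiration and -0.31 after inhalation. Ager, the receptor for advanced glycation end products, which lung type 1 cells make in bulk, fell by 0.70 ± 0.07 after aspiration and by 0.31 ± 0.07 after inhalation. Tlr4, the endotoxin receptor that calprotectin can engage, changed by 0.28 ± 0.08 after aspiration and -0.31 ± 0.09 after inhalation. Cd36, a scavenger receptor, fell by 0.63 ± 0.11 after aspiration and by 0.83 ± 0.12 after inhalation, and S100a11 rose by 0.59 ± 0.08 after aspiration.

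Among the specific granule genes, Ltf rose most. Ltf, which encodes the iron-binding protein lactoferrin, had log2 intensities of 13.16, 13.52, 13.58 and 13.78 in the aspirated rCNT samples, against 11.60, 10.81, 11.82 and 10.93 in the aspirated PBS samples. It had 13.46, 13.01 and 13.41 in the inhaled rCNT samples, against 10.13, 9.89, 9.84 and 10.14 in the untreated samples. Exposed and control samples did not overlap for either route, and the 2 rCNT groups overlapped each other. Ltf rose by 2.22 ± 0.12 after aspiration (4.66-fold, adjusted p = 5.39e-10) and by 3.22 ± 0.13 after inhalation (9.30-fold, adjusted p = 3.14e-11). Within the inhalation slides, with 1 arm of a single sample each, the change was 3.19 on slide 2 and 3.30 on slide 3.

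The controls of Ltf also differed. Aspirated PBS was higher than untreated by 1.29 ± 0.12 (adjusted p = 2.39e-07), and inhaled rCNT was higher than aspirated PBS by 1.93 ± 0.13 (adjusted p = 2.63e-08). The order of the group means was aspirated rCNT (13.51 ± 0.26, SD, n = 4), inhaled rCNT (13.29 ± 0.24, SD, n = 3), aspirated PBS (11.29 ± 0.50, SD, n = 4) and untreated (10.00 ± 0.16, SD, n = 4), and only the first pair of neighbours overlapped. The difference of the effects of 1.0 ± 0.18 (adjusted p = 0.000163) includes that step between the controls, and it was 0.63 with each array centred on its median.

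The genes most alike to Ltf over the 15 samples were 4930444P10Rik and Tmc5 (r = 0.985 each), the mucin gene Muc5b (0.981), Tctex1d2 (0.979) and the mucin gene Muc4 (0.976). Markers of airway secretory cells and glands were set beside Ltf. Of 12 tested, 7 were higher and 4 lower after aspiration, against 20.6% and 26.5% of all genes. After inhalation 9 were higher and 1 lower, against 28.4% and 32.5% of all genes. Muc5b rose by 1.59 ± 0.12 after aspiration and by 2.66 ± 0.13 after inhalation. It is named because it was alike to Ltf, and not all markers moved with it. Scgb1a1 had a mean of 17.19 in the aspirated rCNT samples and 18.17 in the aspirated PBS samples. Its mean was 18.14 in the inhaled rCNT samples and 18.16 in the untreated samples. Bpifa1 had a mean of 12.33 in the aspirated rCNT samples and 13.74 in the aspirated PBS samples. The mean log2 intensity of these 12 genes was 14.35 to 14.81 in the aspirated rCNT samples and 12.89 to 13.43 in the aspirated PBS samples, and 14.00 to 14.26 in the inhaled rCNT samples and 11.82 to 12.14 in the untreated samples. Their part in the Ltf result was not tested.

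**Figure D3:**
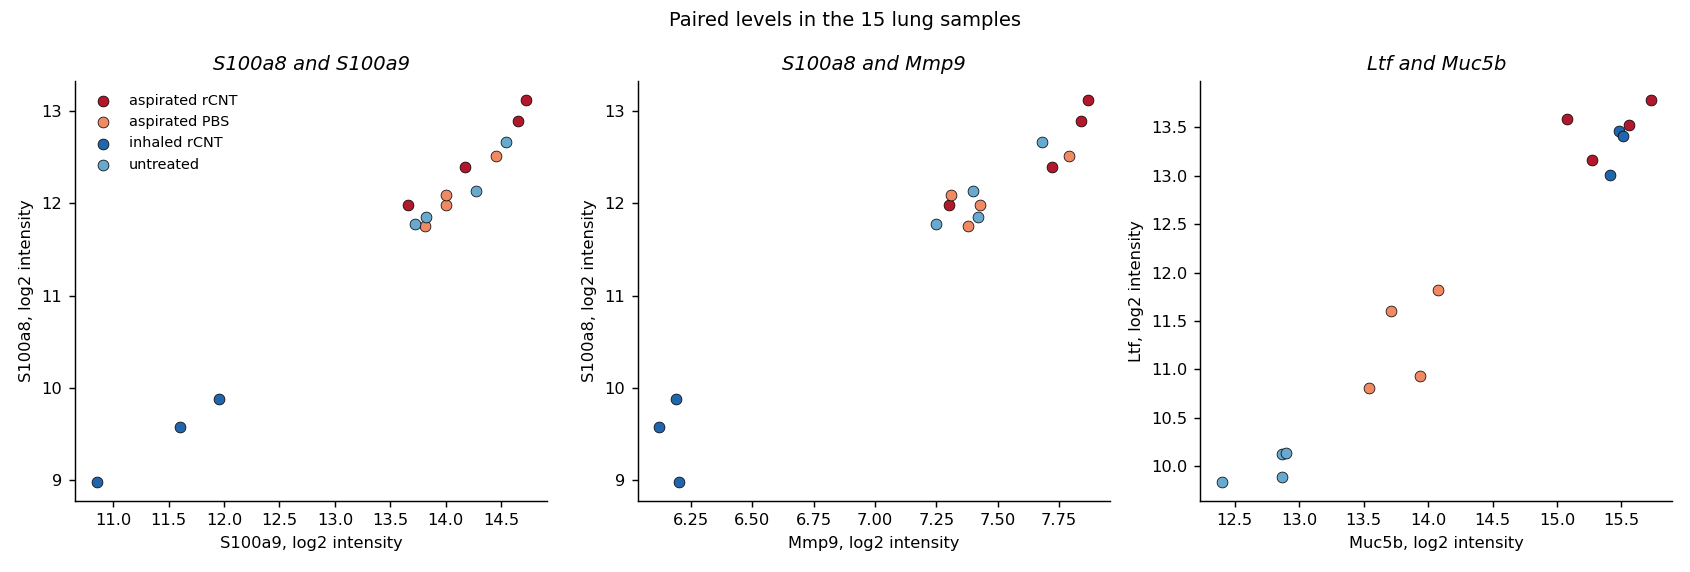
Log2 intensities of gene pairs in the 15 samples: S100a8 (y) against S100a9 (x), S100a8 (y) against Mmp9 (x) and Ltf (y) against Muc5b (x), with colours for the 4 groups. The inhaled rCNT samples lie apart at the low end in the first 2 panels and among the aspirated rCNT samples at the high end in the third. Mmp9 was not well above background in any inhaled rCNT sample, so its order there carries no meaning.

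Cd177, a surface and granule protein of neutrophils that binds endothelial PECAM-1, rose after both exposures. It had log2 intensities of 8.64, 9.15, 8.96 and 9.40 in the aspirated rCNT samples, against 7.01, 7.18, 7.09 and 6.93 in the aspirated PBS samples. It had 7.71, 7.66 and 7.55 in the inhaled rCNT samples, against 6.79, 7.11, 6.79 and 6.93 in the untreated samples. The 4 aspirated rCNT samples were highest, the 3 inhaled rCNT samples came next, and the controls overlapped each other. Cd177 rose by 1.99 ± 0.12 after aspiration (3.96-fold, adjusted p = 2.54e-09) and by 0.72 ± 0.13 after inhalation (1.65-fold, adjusted p = 0.000195), with 0.75 within slide 2 and 0.73 within slide 3 (1 arm of a single sample each). The difference of the effects was -1.26 ± 0.18 (adjusted p = 2.09e-05), and aspirated PBS minus untreated was 0.15 ± 0.12 (adjusted p = 0.303).

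The genes most alike to Cd177 over the 15 samples were the chemokine gene Ccl7 (r = 0.985), the intelectin gene Itln1 (0.984), the complement factor B gene Cfb (0.983), Tff1 (0.982) and Aif1 (0.981). None of these is one of the 10 genes. Between Cd177 and Ltf r was 0.82, between Cd177 and Cebpe 0.85, and between Cd177 and S100a8 0.19.

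Camp, which encodes the cathelicidin antimicrobial peptide, was higher after aspiration. Its brightest probe lay at 7.07 to 7.46 in the aspirated rCNT samples against 6.74 to 6.88 in the aspirated PBS samples, and at 6.90 to 7.17 in the inhaled rCNT samples against 6.82 to 7.05 in the untreated samples. Camp rose by 0.39 ± 0.09 after aspiration (adjusted p = 0.00176), and the log2 fold change was 0.09 ± 0.10 after inhalation (adjusted p = 0.415, 95% interval -0.11 to 0.30). The second Camp probe rose by 0.28 (adjusted p = 0.00849) after aspiration and gave -0.12 (adjusted p = 0.222) after inhalation. The difference of the effects was -0.29 (adjusted p = 0.0633) for the brighter probe and -0.40 (adjusted p = 0.00747) for the second, so the probes fall on different sides of the threshold there.

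Ngp, the gene of neutrophilic granule protein, was well above background in 1 of 15 samples, an aspirated rCNT sample. Its log2 intensity lay at 6.09 to 6.55 in the aspirated rCNT samples, 6.24 to 6.42 in the aspirated PBS samples, 6.10 to 6.29 in the inhaled rCNT samples and 6.10 to 6.21 in the untreated samples. It was not tested.

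Across 11 tested genes of the specific and gelatinase granules, 9 were higher and 1 lower after aspiration, against 20.6% and 26.5% of all genes. After inhalation 5 were higher and 3 lower, against 28.4% and 32.5% of all genes. The median log2 fold change was 0.57 after aspiration and 0.17 after inhalation. Lcn2, the siderophore-binding protein lipocalin 2, rose by 1.90 ± 0.12 after aspiration and by 1.90 ± 0.13 after inhalation. Slpi, a protease inhibitor of epithelium and neutrophils, rose by 0.57 ± 0.08 after aspiration and by 0.73 ± 0.09 after inhalation. Hp, haptoglobin, rose by 0.40 ± 0.11 after aspiration and by 0.70 ± 0.12 after inhalation. Airway and alveolar epithelium also makes Lcn2 and Slpi. Lyz2, lysozyme of myeloid and alveolar type 2 cells, fell by 0.58 ± 0.14 after aspiration and by 1.45 ± 0.15 after inhalation.

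Mpo and Elane, which both encode azurophil granule proteins, were measured above background. Mpo, the gene of myeloperoxidase, lay at 6.56 to 6.70 in the aspirated rCNT samples and 6.45 to 6.57 in the aspirated PBS samples, and at 6.57 to 6.65 in the inhaled rCNT samples and 6.66 to 6.93 in the untreated samples. All 4 groups were dim, with measured spot intensities of 47.5 to 128 units over local backgrounds of 25 to 73. The log2 fold change of Mpo was 0.07 ± 0.06 after aspiration (adjusted p = 0.358) and -0.20 ± 0.07 after inhalation (adjusted p = 0.0207). The inhalation call was lost without inhaled rCNT replicate 1 (-0.18, adjusted p = 0.062), without inhaled rCNT replicate 2 (-0.19, adjusted p = 0.0652), without untreated replicate 3 (-0.15, adjusted p = 0.0614), with each array centred on its median (-0.17, adjusted p = 0.119), and within slide 2 (-0.23, adjusted p = 0.103) and slide 3 (-0.19, adjusted p = 0.214), where 1 arm is a single sample.

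Elane, the gene of neutrophil elastase, did not pass the test with either exposure and differed between the aspiration and inhalation samples. It had log2 intensities of 9.60, 9.28, 9.61 and 9.34 in the aspirated rCNT samples, against 9.49, 9.70, 9.26 and 9.69 in the aspirated PBS samples. It had 10.63, 10.82 and 10.56 in the inhaled rCNT samples, against 10.66, 10.66, 10.75 and 10.76 in the untreated samples. All 7 inhalation samples lay above all 8 aspiration samples, whether exposed or not. The log2 fold change was -0.08 ± 0.07 after aspiration (adjusted p = 0.426, 95% interval -0.23 to 0.08), and after inhalation the interval was -0.17 to 0.17 (adjusted p = 0.978). With each array centred on its median, Elane gave -0.33 after inhalation (adjusted p = 0.0234), beside -0.15 for the median of all genes.

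Aspirated PBS minus untreated was -1.17 ± 0.07 for Elane (adjusted p = 4.71e-09), and inhaled rCNT minus aspirated PBS was 1.17 ± 0.08 (adjusted p = 3.29e-08). Both set slide 1 against slides 2 and 3. Of the 9 azurophil granule genes looked up, Prtn3, Ctsg, Prss57, Ms4a3 and Bpi, which include further serine proteases of these granules, did not pass the filter on dim probes. Of the 4 tested, 1 was higher and 1 lower after aspiration, against 20.6% and 26.5% of all genes. In the inhalation comparison 0 were higher and 3 lower, against 28.4% and 32.5% of all genes. Ctsc, the protease that activates the granule serine proteases, changed by 1.09 ± 0.08 after aspiration and -0.52 ± 0.09 after inhalation. Serpinb1a, an inhibitor of them, fell by 0.29 ± 0.09 after aspiration and by 1.08 ± 0.10 after inhalation.

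Cebpe, the gene of the regulator C/EBP-epsilon, had the largest rise of the 9 after aspiration. It had log2 intensities of 11.66, 11.13, 11.09 and 11.57 in the aspirated rCNT samples, against 7.98, 7.61, 7.98 and 7.66 in the aspirated PBS samples. It had 6.54, 6.50 and 6.29 in the inhaled rCNT samples, against 7.06, 7.09, 7.16 and 7.65 in the untreated samples. The aspirated rCNT samples lay far above all others and the inhaled rCNT samples below all others. Of the inhaled rCNT samples 1 of 3 was well above background. Cebpe rose by 3.55 ± 0.14 after aspiration (11.7-fold, adjusted p = 2.38e-11) and fell by 0.82 ± 0.16 after inhalation (adjusted p = 0.00029).

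For Cebpe the difference of the effects was -4.37 ± 0.21 (adjusted p = 6.03e-10). Within the slides of the inhalation samples the change was -0.60 on slide 2 (adjusted p = 0.0396) and -1.23 on slide 3 (adjusted p = 0.000856), each with 1 arm of a single sample. Slide 3 holds untreated replicate 4, the highest of the untreated samples, and without it the change was -0.68 (adjusted p = 0.00122). Aspirated PBS was above untreated by 0.56 ± 0.14 (adjusted p = 0.00322), and the lowest aspirated PBS sample (7.61) lay below the highest untreated sample (7.65).

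Genes that C/EBP-epsilon is known to switch on differed widely in their change after aspiration. Beside 3.55 for Cebpe, the log2 fold change after aspiration was 2.22 for Ltf, 0.39 for Camp and 1.90 for Lcn2, while Ngp was near background. Markers of other cells rose in the same samples. After aspiration 13 of 13 monocyte and macrophage markers and 5 of 7 eosinophil markers were higher, against 20.6% of all genes. After inhalation 5 of the monocyte and macrophage markers were higher and 4 lower, and 1 of the eosinophil markers was higher and 3 were lower. The shares of all genes after inhalation were 28.4% higher and 32.5% lower. Prg2, the major basic protein of eosinophils, rose by 2.99 ± 0.12 after aspiration and Ms4a7, a macrophage marker, by 2.50 ± 0.12. In the aspirated PBS samples Prg2 was well above background in 1 of 4, so the size of its rise is uncertain. The eosinophil markers that fell after inhalation were Siglecf (-1.71 ± 0.11), Ear2 (-1.46 ± 0.10) and Ccr3 (-0.69 ± 0.14). Prg2 and Alox15, also on that list, were not well above background in any untreated or inhaled rCNT sample. Which cells gave the signal of the markers that fell was not tested. The mean log2 intensity of the eosinophil markers was 10.10 to 10.50 in the aspirated rCNT samples and 8.87 to 8.95 in the aspirated PBS samples, and 8.08 to 8.17 in the inhaled rCNT samples and 8.55 to 8.75 in the untreated samples. That of the monocyte and macrophage markers was 11.90 to 12.15 in the aspirated rCNT samples and 10.52 to 10.58 in the aspirated PBS samples, and 10.58 to 10.78 in the inhaled rCNT samples and 10.54 to 10.77 in the untreated samples. The part of these cells in the Cebpe result was not tested. Eosinophils also use C/EBP-epsilon as they mature.

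Of 9 transcription factors of granulocyte development, 6 were higher and 1 lower after aspiration, against 20.6% and 26.5% of all genes. After inhalation 4 were higher and 4 lower, against 28.4% and 32.5% of all genes. Spi1, which encodes PU.1, changed by 0.64 ± 0.11 after aspiration and -0.55 ± 0.12 after inhalation. Gfi1, a repressor needed for neutrophil maturation, changed by 0.62 ± 0.08 after aspiration and -0.30 ± 0.09 after inhalation. Both thus changed in the direction of Cebpe for each route. Myb, a factor of proliferating progenitors, rose by 0.55 ± 0.11 after aspiration and by 2.03 ± 0.12 after inhalation. Which cells of the lung gave the Myb signal was not tested. Cebpd rose by 0.73 ± 0.25 after inhalation. Of 7 tested markers of bone marrow progenitors and dividing cells, 5 were higher and 1 lower after aspiration. In the inhalation comparison 4 were higher and 1 lower. The shares of all genes are those given above for the transcription factors. Prtn3, Ctsg, Ms4a3 and Fcnb of this list did not pass the filter on dim probes. Chil3, which was tested, is also counted among the monocyte and macrophage markers. Mki67, a marker of dividing cells of any type, rose by 2.52 ± 0.10 after aspiration and by 2.22 ± 0.10 after inhalation.

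Csf3r, the receptor of granulocyte colony-stimulating factor, changed in opposite directions with the 2 exposures. It had log2 intensities of 16.05, 15.82, 16.07 and 15.86 in the aspirated rCNT samples, against 16.33, 16.38, 16.23 and 16.40 in the aspirated PBS samples. It had 16.36, 16.52 and 16.28 in the inhaled rCNT samples, against 15.78, 16.04, 15.99 and 15.77 in the untreated samples. The aspirated PBS and inhaled rCNT samples were high and overlapped, and the aspirated rCNT and untreated samples were low and overlapped. Csf3r fell by 0.39 ± 0.05 after aspiration (adjusted p = 1.73e-05) and rose by 0.53 ± 0.06 after inhalation (adjusted p = 1.04e-06), with 0.55 within slide 2 and 0.54 within slide 3 (1 arm of a single sample each).

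The difference of the effects for Csf3r was 0.91 ± 0.08 (adjusted p = 1.17e-07), and aspirated PBS minus untreated was 0.44 ± 0.05 (adjusted p = 3.13e-06). The Csf3r values depended on scaling: with each array centred on its median the inhalation change was 0.06 (adjusted p = 0.637), or 0.21 above the median of all genes, and the aspiration change was -0.23 (adjusted p = 0.0465). Its probe had measured intensities of 38067.5 to 130618 units without saturation. The genes most alike to Csf3r over the 15 samples were Cfap300 (r = 0.971), Dnajc5 and Siglech (0.965 each), Dnase2a (0.962) and Utp6 (0.958), and r was -0.58 between Csf3r and S100a8.

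Ligands and receptors of granulocyte and macrophage growth were also counted, with Csf3r among them. Of 6 tested, 5 were higher and 1, Csf3r itself, was lower after aspiration, against 20.6% and 26.5% of all genes. After inhalation 4 were higher and 0 lower, against 28.4% and 32.5% of all genes. Csf3, which encodes the ligand of Csf3r, and the cytokine genes Il17a and Il17f did not pass the filter on dim probes. Csf2rb, the shared beta chain of the receptors for granulocyte-macrophage growth factor and related cytokines, rose by 1.36 ± 0.09 after aspiration. The related gene Csf2rb2 rose by 1.53 ± 0.07 after aspiration. Csf2ra, the alpha chain of the granulocyte-macrophage growth factor receptor, rose by 0.71 ± 0.08 after aspiration and by 1.51 ± 0.09 after inhalation. The gene of its ligand, Csf2, rose by 0.54 ± 0.11 after aspiration and by 0.70 ± 0.12 after inhalation. Csf1, the macrophage growth factor, rose by 0.87 ± 0.09 after aspiration.

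Neutrophil defining markers were set beside these genes to see how far they moved together. Of 9 tested, which include Csf3r, 5 were higher and 1 lower after aspiration, against 20.6% and 26.5% of all genes. After inhalation 2 were higher and 4 lower, against 28.4% and 32.5% of all genes. The marker Ly6g was not matched on the array by accession. The median log2 fold change was 0.81 after aspiration and -0.18 after inhalation, beside -0.04 and -0.02 for all genes. For the difference of the effects 2 were higher and 7 lower, with a median of -1.39.

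After aspiration the resistin-like gene Retnlg rose by 1.93 ± 0.17, the decoy receptor gene Il1r2 by 1.76 ± 0.13, the neutrophil collagenase gene Mmp8 by 1.17 ± 0.17, the chemokine receptor gene Cxcr2 by 1.07 ± 0.13 and Asprv1 by 0.81 ± 0.15. Of these, Cxcr2 fell by 0.76 ± 0.15 and Asprv1 by 0.58 ± 0.17 after inhalation, and the others gave 0.11 for Retnlg, -0.18 for Il1r2 and -0.02 for Mmp8 without passing the test. The gelatinase gene Mmp9 gave 0.20 ± 0.12 after aspiration (adjusted p = 0.192) and was at least 2.32-fold lower after inhalation, since it was not well above background in any inhaled rCNT sample. The stefin gene Stfa2l1 gave 0.41 ± 0.21 after aspiration (adjusted p = 0.121) and fell by 0.88 ± 0.23 after inhalation. Trem1, an activating receptor of neutrophils and monocytes, gave -0.10 ± 0.09 after aspiration (adjusted p = 0.343) and rose by 0.59 ± 0.09 after inhalation.

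**Figure D4:**
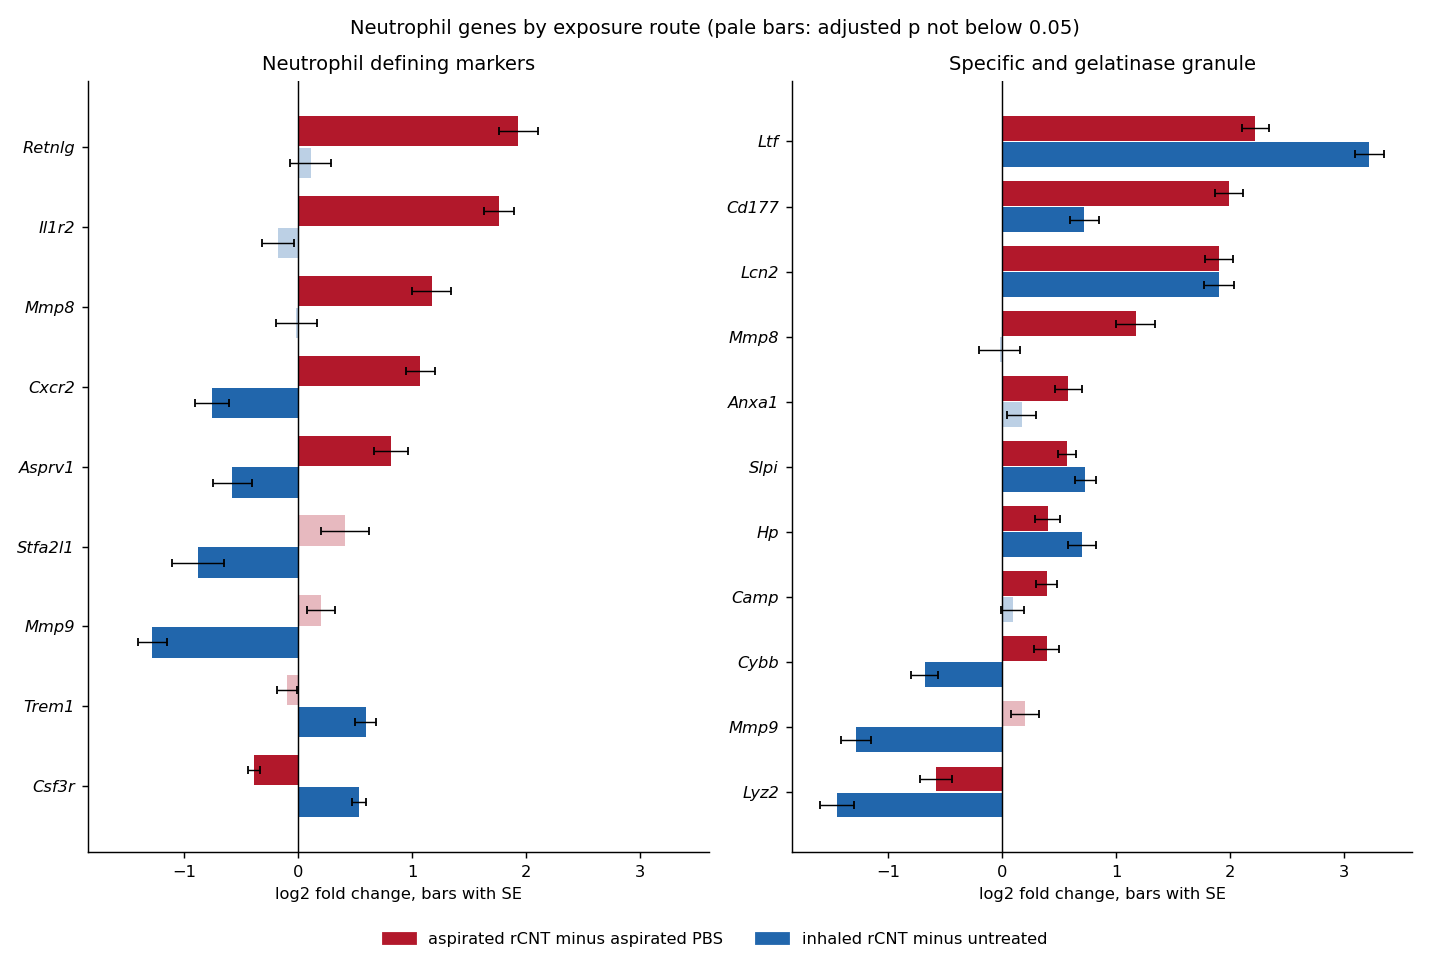
Log2 fold change (x axis, bars with SE) of 9 neutrophil defining markers and 11 genes of the specific and gelatinase granules after aspirated rCNT against aspirated PBS (red) and inhaled rCNT against untreated (blue). Pale bars did not pass the adjusted p threshold of 0.05. Retnlg and Il1r2 have long red and short pale blue bars, Mmp9 and Lyz2 fell after inhalation, and Ltf and Lcn2 rose after both.

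In the longer list of mature neutrophil genes 16 of 27 were higher and 6 lower after aspiration, with a median log2 fold change of 0.72, against 20.6% of all genes higher and 26.5% lower. After inhalation 4 were higher and 11 lower, with a median of -0.24, against 28.4% of all genes higher and 32.5% lower. The share lower was above that of all genes. The share higher was below it, as was the share called in all (60.8% of all genes). Not all of these genes rose after aspiration. The formyl peptide receptor genes Fpr1 and Fpr2 fell after both exposures, by 1.93 ± 0.14 and 1.12 ± 0.11 after aspiration and by 1.15 ± 0.15 and 1.04 ± 0.12 after inhalation.

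Of 9 markers of lung epithelium and endothelium 2 were higher and 5 lower after either exposure. Of 11 genes of red cells and platelets, 1 was higher and 9 lower after aspiration, and 0 were higher and 9 lower after inhalation. Of 8 B cell markers 0 passed after aspiration by limma, with 1 at an unadjusted p below 0.05. In the inhalation comparison 0 of them were higher and 7 lower. These list counts stand beside 20.6% of all genes higher and 26.5% lower after aspiration. The shares after inhalation were 28.4% higher and 32.5% lower. The mean log2 intensity of the blood genes was 11.36 to 11.58 in the aspirated rCNT samples and 11.95 to 12.45 in the aspirated PBS samples, and 11.44 to 11.90 in the inhaled rCNT samples and 12.07 to 12.75 in the untreated samples. That of the B cell markers was 9.23 to 9.62 in the aspirated rCNT samples and 9.34 to 9.91 in the aspirated PBS samples, and 8.14 to 8.58 in the inhaled rCNT samples and 9.06 to 10.36 in the untreated samples. The part of blood in the calprotectin result was not tested.

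Between the controls, aspirated PBS and untreated, 3 of the 9 genes were higher (Ltf, Cebpe and Csf3r) and 2 lower (Elane and Mpo), against 26.3% of all genes higher and 33.1% lower, 59.4% in all. In 4 of the 9 the controls did not overlap, against 49.3% of all genes. Between inhaled rCNT and aspirated PBS 3 were higher (Ltf, Elane and Cd177) and 3 lower (S100a8, S100a9 and Cebpe), against 27.5% of all genes higher and 27.7% lower, 55.2% in all. In 8 of the 9 these groups did not overlap, against 50.9% of all genes. For the difference of the effects 2 were higher (Ltf and Csf3r) and 5 lower (S100a8, S100a9, Mpo, Cebpe and Cd177), against 28.5% of all genes higher and 28.4% lower, 57% in all. These comparisons share samples with the 2 main ones.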

How the data were processed

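Per the file headers, the authors' spot intensity values were extracted with Agilent Feature Extraction 11.0.1.1, on an array designed on the mouse build mm9. The deposited files hold a median spot intensity and a median local background. The deposited series table holds values taken here as log2, whose column medians were 6.72 to 6.73 and which correlated at 0.9975 or above with each sample's own channel; how they were centred and the base of the logarithm stay unknown, and the table served only as an alternative.

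For each sample's own channel, background was corrected with normexp (offset 50), log2 was taken, and the 15 channels of 14 arrays were quantile-normalised. Control spots were dropped, as were the 106 to 154 spots per sample that carried an outlier flag. A probe stayed in (34270 of 55681) if 3 or more samples of 1 group had it well above background. Of 29123 probes with a RefSeq accession 27670 matched a symbol (GRCm38.p6 table, used for names only), and the brightest probe stood for a gene. With limma 3.58.1 (R 4.3.3), lmFit and eBayes gave two-sided tests from a model of group and dye over the 15 samples, tested on simulated data. Python 3.11.15 drew the figures. The number of arrays limits the precision.

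Groups follow the labels. For untreated replicate 1 the title speaks of PBS aspiration and every other label of no treatment; it stayed with the untreated samples and was left out as an alternative. Untreated replicate 4 and inhaled rCNT replicate 2 were hybridised on the same array. The genes and the 15 gene lists were chosen with earlier results of these data known. From each list the rule named up to 3 called genes with the largest change per exposure, and all neutrophil defining markers; not all of those outside the neutrophil lists are printed. A few further genes (Tlr4, Slpi, Hp and, as a gene like Ltf, Muc5b) were added after their values were seen. The 5 most alike genes by Pearson r over the 15 samples were named for S100a8, S100a9, Ltf, Cd177 and Csf3r.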

Additional observations from a re-analysis of the deposited data

Results flagged for a closer look

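In untreated replicate 4 Cebpe had a log2 intensity of 7.65, against 7.06 to 7.16 in the other untreated samples, so that the gap made up 0.83 of the range of the group. This was the 1 sample that stood apart among 27 sets of values checked (9 genes in 3 groups of 4), and chance alone marks about 1 in 20 such sets. That sample shares an array with inhaled rCNT replicate 2.

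The effects of rCNT differed between the routes for 7 of the 9 genes, by the test of the difference itself (inhaled minus aspirated, log2 scale). Among all genes 57% passed the same test, so the count is not particular to these genes. The difference was -3.15 for S100a8, -2.87 for S100a9, -4.37 for Cebpe, -1.26 for Cd177 and -0.27 for Mpo, and it was 1.0 for Ltf and 0.91 for Csf3r. It includes any difference between aspirated PBS and untreated lungs, and route and slide cannot be told apart in it.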

How the results depend on the processing

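In all 5 comparisons the number of the 9 genes called stayed within 1.5 times under every alternative run. After aspiration it was 5, with 5 to 6 when 1 sample was left out and 4 to 6 under the others. After inhalation it was 7 (6 to 7 and 6 to 7), for the difference of the effects 7 (7 to 8 and 5 to 8), for aspirated PBS minus untreated 5 (5 to 5 and 4 to 6), and for inhaled rCNT minus aspirated PBS 6 (6 to 7 and 5 to 7). Of 1219 values of single genes 1192 kept their side of the threshold and, where called, their direction, 9 lost the call, 17 gained one and 1 reversed. Values that did not pass could change sign, as for Elane in the difference (0.07, and -0.27 with each array centred on its median). The reversal was Csf3r in inhaled rCNT minus aspirated PBS with each array centred on its median, at -0.23 (adjusted p = 0.0426), where the median of all genes was -0.29. That centring moved the median of all genes to -0.15 after inhalation and -0.14 for the difference. The share of called genes that were higher became 27.5% after inhalation (46.7% otherwise), 30.6% for the difference (50.1%), 21.1% for inhaled rCNT minus aspirated PBS (49.9%) and 59.1% for aspirated PBS minus untreated (44.3%). Under it Csf3r (0.29, adjusted p = 0.072) and Mpo (-0.27, adjusted p = 0.0668) lost the call for the difference, and Elane in inhaled rCNT minus aspirated PBS was 0.65; the cause was not tested. S100a8 also passed after aspiration with array weights (0.54, adjusted p = 0.048). Camp passed for the difference under 8 alternatives (adjusted p = 0.00667 to 0.0395).

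Deviations from the group mean had correlations of -0.43 to -0.07 between aspiration samples with the same replicate number. Between such inhalation samples they were -0.06 to 0.08. Dye was not removed first, and each such aspiration pair had different dyes. The check thus cannot show whether the aspiration samples were paired, and the main model did not pair them. With the replicate block the genes called were 5 after aspiration, 7 after inhalation, 8 for the difference, where Camp was added (-0.31, adjusted p = 0.0395), 5 for aspirated PBS minus untreated and 6 for inhaled rCNT minus aspirated PBS. The shared array as a random block could not be fitted. For the neutrophil defining markers, whose recounts were added after seeing the data, 4 to 8 were called after aspiration and 4 to 7 after inhalation. In inhaled rCNT minus aspirated PBS 3 were called where probes had to be well above background in all samples. The dim probes of Mpo, Camp and Ngp, and Cebpe in inhaled rCNT samples, limit what these arrays can show.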
